A study of Danio rerio with 18 samples.

Results

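The comparison described here set zebrafish heterozygous for the kif7co63 allele (kif7co63/+) against wild-type fish of the AB strain at 6 weeks post fertilization (wpf). It used 6 of the 18 samples of the series, 3 fish of each genotype, and took in every gene with enough reads, 23075 of the 31901 genes counted. Each library came from the whole body of 1 fish. The kif7co63 allele was made by CRISPR-Cas9 in exon 3 of kif7 as a small deletion and insertion that adds amino acids without shifting the reading frame, so every heterozygote carried 1 copy of this line's mutant chromosome and 1 wild-type copy. The line was kept by repeated outcrossing to AB, and the whole-fish RNA mixed every tissue. The sex, clutch, tank and hour of collection of the 6 fish are not given in the sources used here, so none of these can be told apart from genotype. Homozygous kif7co63/co63 fish of the same age, 3 with and 3 without scoliosis, are cited only as a further reference. The comparison asks how the juvenile transcriptome differed when 1 of the kif7 copies was mutant.

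Kif7 is a kinesin that sits at the tip of the primary cilium, where it sets how Gli transcription factors respond to Hedgehog ligands. In vertebrates the pathway patterns the neural tube, somites and growing skeleton, and transcription of ptch1 and gli1 is the usual readout of its activity. Other systems recur in the results. The circadian clock is a loop in which Clock and Bmal proteins switch on the Per, Cry and Rev-erb genes that then shut them down, and it runs in every zebrafish tissue and responds to light. Immediate early genes are switched on within minutes of a stimulus, before any new protein is made. The sterol and proteasome genes are each driven as a block by a dedicated transcription factor.

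Libraries held 49434684 to 69188650 assigned reads, with the 3 heterozygotes (up to 53862782) below the 3 AB fish (from 57466490). The 20 most abundant genes took 11.6 to 12.4% of reads in AB and 13.5 to 15.5% in heterozygotes. Levels below are counts scaled to library size by TMM (CPM), given in the order fish 1, 2 and 3 of a group, and can be compared between fish for 1 gene but not between genes, because gene length is not in them. Differences are on the log2 scale, heterozygote minus AB, and are given with ± 1 standard error where marked. A gene was called when the adjusted p of edgeR's quasi-likelihood test was under 0.05. That rule called 36.2% of the tested genes, with 18.6% above and 17.6% below AB, and the median log2 difference of all genes was 0.03. The groups did not overlap in 52.4% of genes, and 2545 called genes differed by more than 1 on the log2 scale, 1719 of them higher. Every count of list members below reads against these shares. Fewer genes were called on leaving out any fish other than kif7co63/+ fish 3. A smaller group also lowers power, and this was not separated from the weight of a single fish. Without kif7co63/+ fish 1, 5195 genes were called (2814 higher and 2381 lower), and without AB fish 1 the lower calls fell from 4059 to 2700. Kif7co63/+ fish 3 lay nearest to AB.

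kif7 itself (ENSDARG00000033099, GRCz11 chromosome 7 from 14393059 to 14446512) was lower in heterozygotes, at 22.8, 22.4 and 30.1 CPM against 38.9, 40.04 and 44.7 CPM in AB. Every heterozygote lay below every AB fish (log2 −0.72, standard error 0.14, edgeR adjusted p = 0.00548). Homozygotes held 24.1 to 28.04 CPM, a range that overlaps the heterozygotes. ptch1 (gene model ENSDARG00000016404), the Hedgehog receptor and the pathway's own target, was close to absent in AB by read count, with 8, 16 and 2 reads (0.129, 0.252 and 0.0268 CPM). Heterozygotes gave 248, 224 and 121 reads (4.87, 4.27 and 2.16 CPM), and homozygotes 5.33 to 7.65 CPM. The order AB, heterozygote, homozygote left no overlap between genotypes for ptch1 (log2 4.8, standard error 0.62, edgeR adjusted p = 0.000887), and kif7co63/+ fish 3 was the lowest heterozygote. Without AB fish 2 the ptch1 difference was 5.61. A further gene model of this symbol was not tested. The paper's RT-qPCR gave similar cycle values for ptch1 and gli1 in AB fish. Near-absence is therefore shown only for reads counted to this model. tspan36, on the same stretch of chromosome 8, was also close to absent in AB by reads, as given below. The other Hedgehog targets moved far less. gli1, the activator Gli, stood at 20.9, 19.7 and 21.02 CPM against 16.1, 14.7 and 15.2 in AB, a log2 difference of 0.42 (standard error 0.10, edgeR adjusted p = 0.0129), and lost its call without kif7co63/+ fish 1 (edgeR adjusted p = 0.0536). foxc1b and prdm1a, transcription factors of paraxial mesoderm and slow muscle, rose by 0.81 ± 0.15 and 0.81 ± 0.16 (log2 ± standard error).

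Across the Hedgehog lists, 4 of 12 targets rose and 0 fell, and the count was 3 without kif7co63/+ fish 1. The ligand gene shha did not pass the read filter and was not tested. None of the 12 tested genes for the ligands and their release was called by edgeR or DESeq2 (2 at an unadjusted edgeR p under 0.05). Their differences ran from −0.41 to 0.41 on the log2 scale. With upper quartile scaling 2 of them were called higher, and 1 was with a filter at a mean of 1 CPM, in the fit of all 12 fish, with the replicate block, or without AB fish 1, AB fish 2 or kif7co63/+ fish 2, and 1 was called lower without kif7co63/+ fish 3. Of 7 receptors and co-receptors, ptch1 alone was called (3 without kif7co63/+ fish 3 or with upper quartile scaling), and the others lay between −0.09 and 0.39. Among 14 transduction genes, gli1 rose, and 2 were lower. prkacab, a catalytic subunit of protein kinase A, fell by 0.28 on the log2 scale (edgeR adjusted p = 0.0488), a call lost on leaving out any fish other than kif7co63/+ fish 2 (0.0548 to 0.155), and also with upper quartile scaling (0.143), without a filter (0.0597) and with the replicate block (0.0774). dzip1, a basal body protein that acts on Gli in zebrafish, had 43, 52 and 37 reads in AB and 2, 0 and 2 in heterozygotes, so the difference rests on few reads.

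The share of called genes did not rise towards kif7. Within 1 Mb of it, 10 of 27 tested genes passed (37.0%, 7 of them higher), and within 5 Mb 51 of 139 (36.7%), as against 390 of 1055 on the rest of chromosome 7 (37.0%). Among nuclear chromosomes the share ran from 27.6% on chromosome 4 to 40.7% on chromosome 20. Among the genes within 1 Mb, pdcd7, a subunit of the minor spliceosome, had 36.97, 34.5 and 38.7 CPM in AB, 22.9, 18.6 and 29.2 in heterozygotes and 8.62 to 12.7 in homozygotes, so the genotypes fell in order. mrpl46, a mitochondrial ribosomal protein, fell by 0.79, and furina, a proprotein convertase, by 0.55 on the log2 scale. The call of pdcd7 was lost without AB fish 1, AB fish 3 or kif7co63/+ fish 1 (edgeR adjusted p = 0.0541 to 0.0634), and that of furina on leaving out any AB fish or kif7co63/+ fish 1 (0.0508 to 0.0755). rasl12, a Ras-like protein, rose by 1.17 ± 0.15, rhcga, an ammonia channel, by 1.06 ± 0.21, and plekho2 by 0.44 ± 0.10. igf1rb, a receptor for insulin-like growth factor, rose by 0.96 ± 0.25, a call lost without kif7co63/+ fish 1 (edgeR adjusted p = 0.0708). A pair of adjacent genes just outside this window, picked after their values were seen, showed a stepped pattern. si:ch73-119p20.1 (chromosome 7 from 13375565 to 13381129) stood at 34.2, 31.6 and 31.3 CPM in AB, 19.4, 15.7 and 15.3 in heterozygotes and at most 0.105 CPM in homozygotes, so heterozygotes kept 51.9% of the AB mean (edgeR adjusted p = 0.000863). Its neighbour polr2l, which encodes a subunit shared by the nuclear RNA polymerases, had 4.32, 3.94 and 4.34 CPM in AB and 1.2, 1.85 and 0.892 in heterozygotes, and at most 0.0211 CPM in homozygotes.

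**Figure D1:**
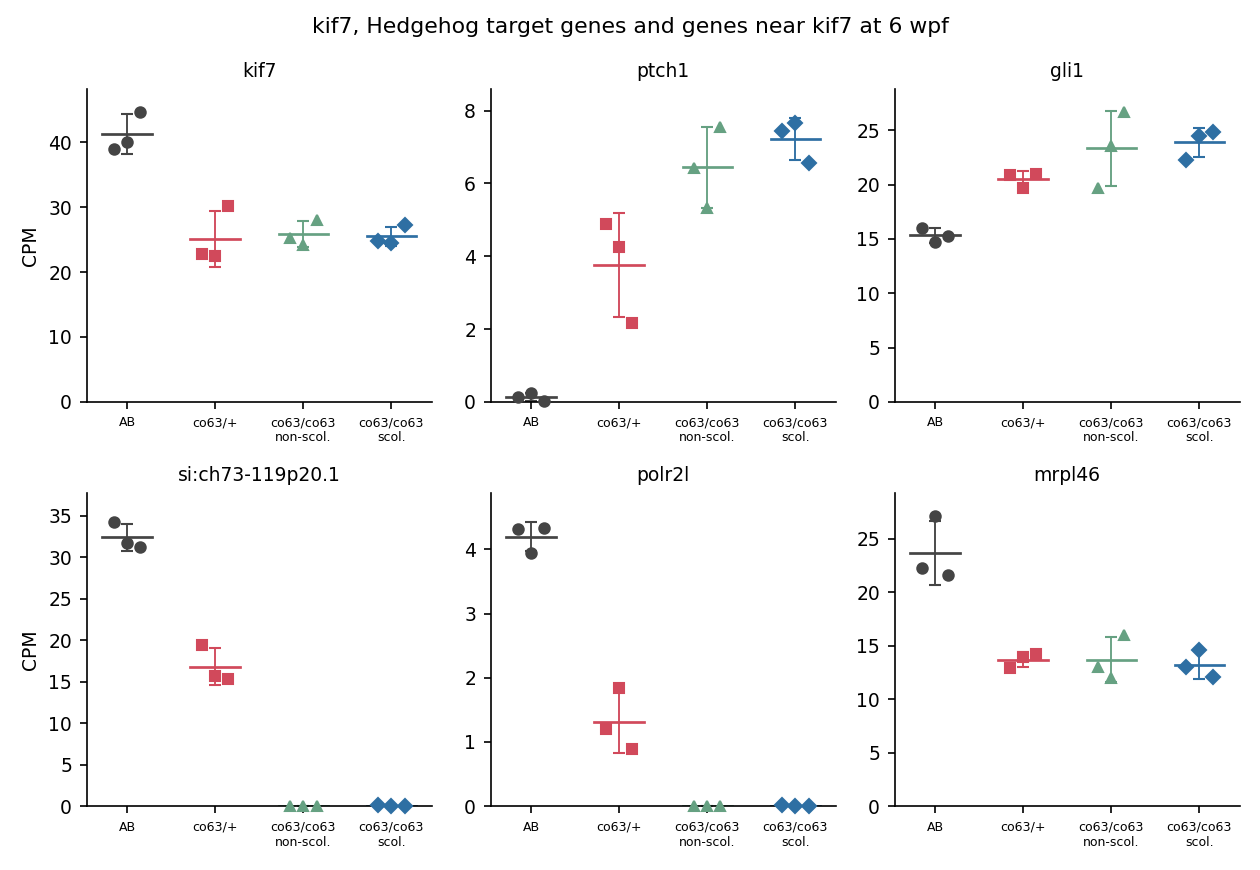
Level of kif7, ptch1 and gli1 (top) and of 3 genes on chromosome 7 near kif7 (bottom) in each of the 12 fish at 6 wpf, in TMM-scaled CPM, with 1 symbol per fish, the group mean as a bar and its SD as whiskers. The 3 heterozygotes lie below the 3 AB fish for kif7 and above them for ptch1, and si:ch73-119p20.1 and polr2l step down from AB to heterozygotes to almost nothing in homozygotes.

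**Figure D2:**
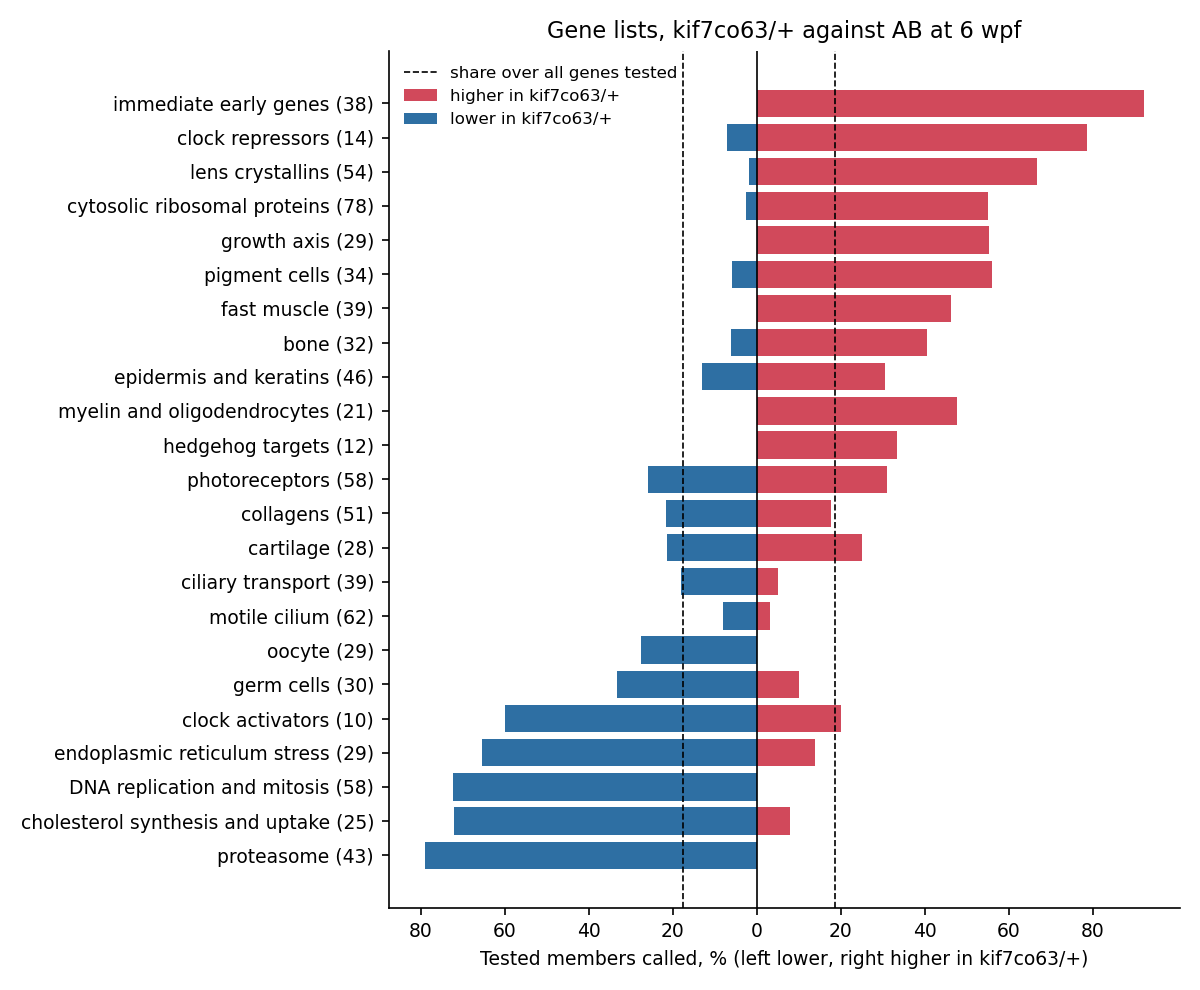
Genes called higher (right) and lower (left) in heterozygotes, as a percent share of the tested members of each list shown. Reference lines give the same shares over all 23075 tested genes. The lists shown are a selection, and those left out include Wnt signalling, hox genes and oxidative phosphorylation. The clock repressors and immediate early genes lie far out on the higher side, and proteasome, replication and cholesterol genes on the lower side.

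The clock repressors had the largest median difference of the 53 lists with tested members. Of 14 genes on the repressor list, a photolyase gene among them, 11 rose and 1 fell, with a median log2 difference of 2.57. Of 10 activators 6 fell and 2 rose (median −1.12, or −0.73 over members with a mean of at least 1 CPM). nr1d1, which encodes the heme-binding repressor Rev-erb alpha, had 0.841, 0.836 and 1.19 CPM in AB and 156, 142 and 143 CPM in heterozygotes. That is a 152-fold difference with tight replicates on both sides (log2 7.25, standard error 0.18, edgeR adjusted p = 4.73e-07). Its paralogs nr1d2a and nr1d2b rose by 3.53 ± 0.13 and 2.76 ± 0.12. Among the Period genes per1a rose by 5.38 ± 0.13, per3 by 3.47 ± 0.19, per1b by 2.74 ± 0.11 and the light-induced per2 by 1.18 ± 0.12. per3 went from 39.6, 23.9 and 33.04 CPM to 352, 368 and 351 CPM without overlap. The Clock-Bmal inhibitors ciartb and ciarta rose by 3.42 ± 0.14 and 2.4 ± 0.12, and the photolyase and cryptochrome genes cry5 and cry2 by 1.03 ± 0.13 and 0.66 ± 0.11. cry4, another cryptochrome gene, was the 1 member of the list that fell, from 40.1, 42.1 and 39.5 CPM to 18.5, 16.99 and 18.4 CPM. nr1d4a and nr1d4b were not called (−0.24 ± 0.41 and 0.19 ± 0.35).

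On the activator side, rorcb, a nuclear receptor that competes with Rev-erb for its sites, fell from 126, 129 and 139 CPM in AB to 16.2, 19.8 and 16.7 CPM (log2 −2.9, standard error 0.12, edgeR adjusted p = 3.86e-06). The Bmal1 genes arntl1a and arntl1b fell by 1.02 and 1.22 on the log2 scale, clocka by 1.24, and npas2, a partner that can replace Clock, by 2.19. The values of arntl1a were 62.6, 59.5 and 62.4 CPM against 32.7, 23.4 and 34.7 CPM, so the groups lay apart. clockb fell by 0.46, a call lost without AB fish 1 or kif7co63/+ fish 1 (edgeR adjusted p = 0.0684 and 0.0683). roraa and rorab rose, by 0.38 ± 0.10 and 0.58 ± 0.19. Some of these calls were not firm. npas2, at a mean of 0.214 CPM, lost its call without AB fish 2, AB fish 3, kif7co63/+ fish 1 or kif7co63/+ fish 3 (edgeR adjusted p = 0.0653 to 0.0931), roraa without AB fish 2, AB fish 3 or kif7co63/+ fish 2 (0.0565 to 0.0778), and rorab without AB fish 1, AB fish 3, kif7co63/+ fish 2 or kif7co63/+ fish 3 (0.106 to 0.121). Of the output regulators, the PAR bZIP factors dbpb, dbpa, tefa and tefb rose by 3.07 ± 0.14, 2.6 ± 0.10, 1.57 ± 0.17 and 1.48 ± 0.13, and the E-box repressors bhlhe41 and bhlhe40 by 2.61 ± 0.15 and 0.68 ± 0.10. The tefa call was lost in the fit that held all 12 fish of this age (edgeR adjusted p = 0.293), as were those of roraa and rorab (0.101 and 0.0574). The nfil3 genes, which encode competitors of the PAR factors, split. nfil3-6 rose by 3.29 ± 0.16, while nfil3-5 fell by 2.82 on the log2 scale. cirbpa, a cold-inducible RNA-binding protein with a daily rhythm in mammals, fell by 0.91. Summed over the list, repressors came to 294, 267 and 288 CPM in AB and 1458, 1408 and 1435 CPM in heterozygotes, and activators to 283, 269.7 and 293 against 125, 124 and 135 CPM. With 3 fish a side, the two-sided exact permutation test on these sums gave p = 0.1, the smallest that it can give. The hour at which each fish was taken was not available as a covariate, and its part in these differences was not tested.

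**Figure D3:**
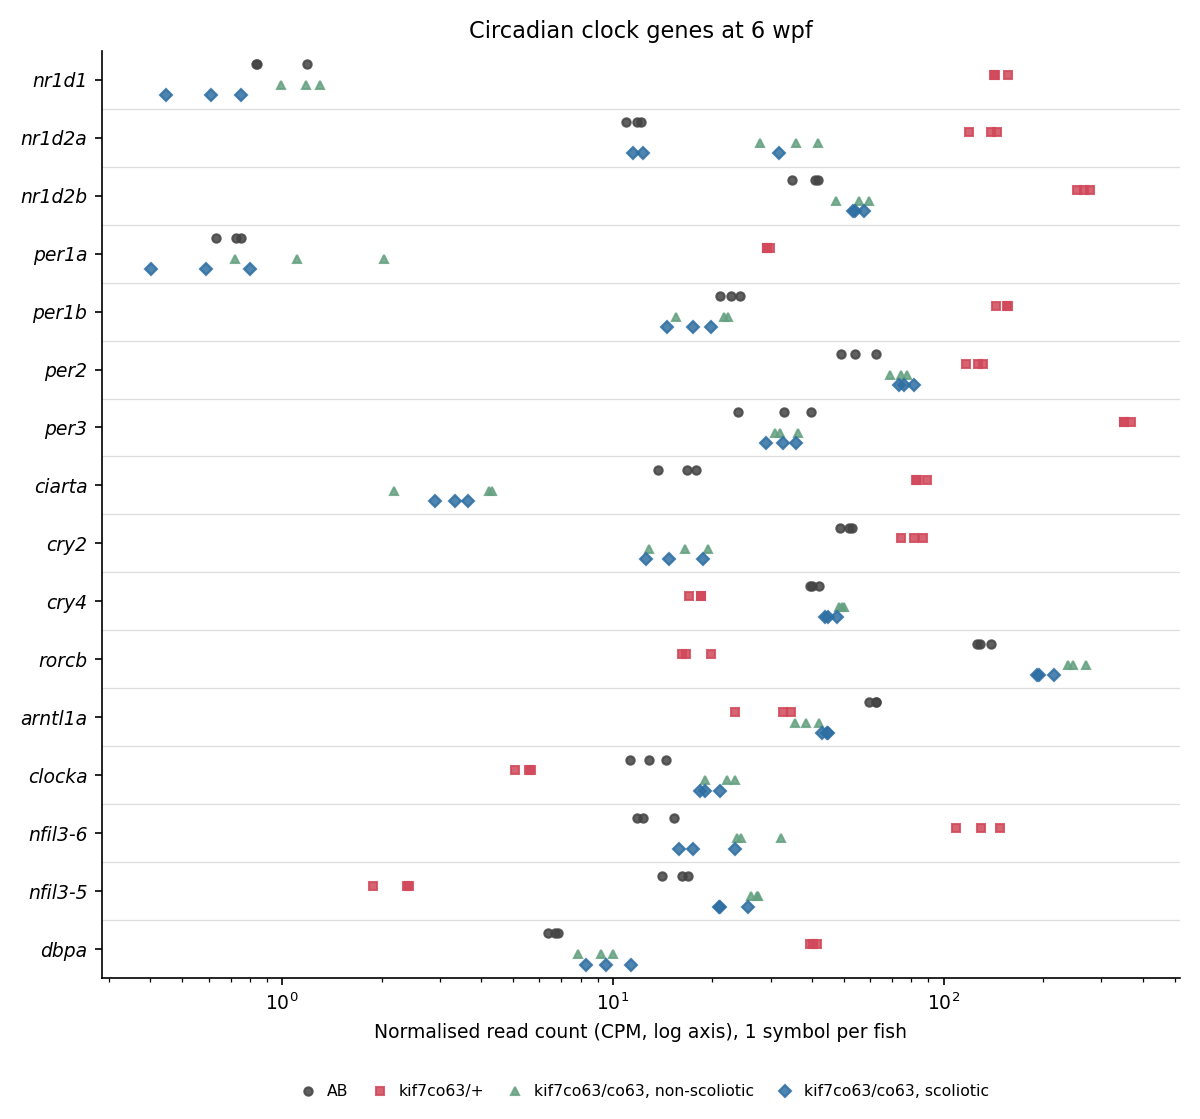
Level of clock genes in each of the 12 fish at 6 wpf, in TMM-scaled CPM on a log axis, 1 point per fish. For nr1d1 the heterozygotes lie at 142 to 156 CPM and the AB fish at 0.836 to 1.19 CPM, with homozygotes near AB.

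Immediate early genes rose almost as a body, 35 of 38 with 0 lower and a median of 2.46 on the log2 scale. fosb, a subunit of the AP-1 transcription factor, had 1.57, 1.1 and 1.42 CPM in AB and 295, 379.7 and 261 CPM in heterozygotes. All heterozygotes were high, 228-fold on average, with fish 2 the highest (log2 7.83, standard error 0.22, edgeR adjusted p = 7.39e-07). The AP-1 family members fosl1a and jdp2b rose by 5.39 ± 0.35 and 6.11 ± 0.18. Others, named after their values were seen, were fosab, the zebrafish Fos (4.83 ± 0.17), jun (2.58 ± 0.15), junbb (3.41 ± 0.23), and the zinc finger factors egr1 (3.38 ± 0.44) and klf4 (3.84 ± 0.27). Of the most abundant members, cebpd, a factor of the acute phase, rose by 4.03 ± 0.17, and the anti-proliferative genes btg2 and btg1 rose by 2.15 ± 0.13 and 0.82 ± 0.10. The summed level of the list was 1068, 1066 and 1065 CPM in AB and 6108, 7632 and 5375 CPM in heterozygotes, and 33 to 35 members were called higher when 1 fish at a time was left out.

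**Figure D4:**
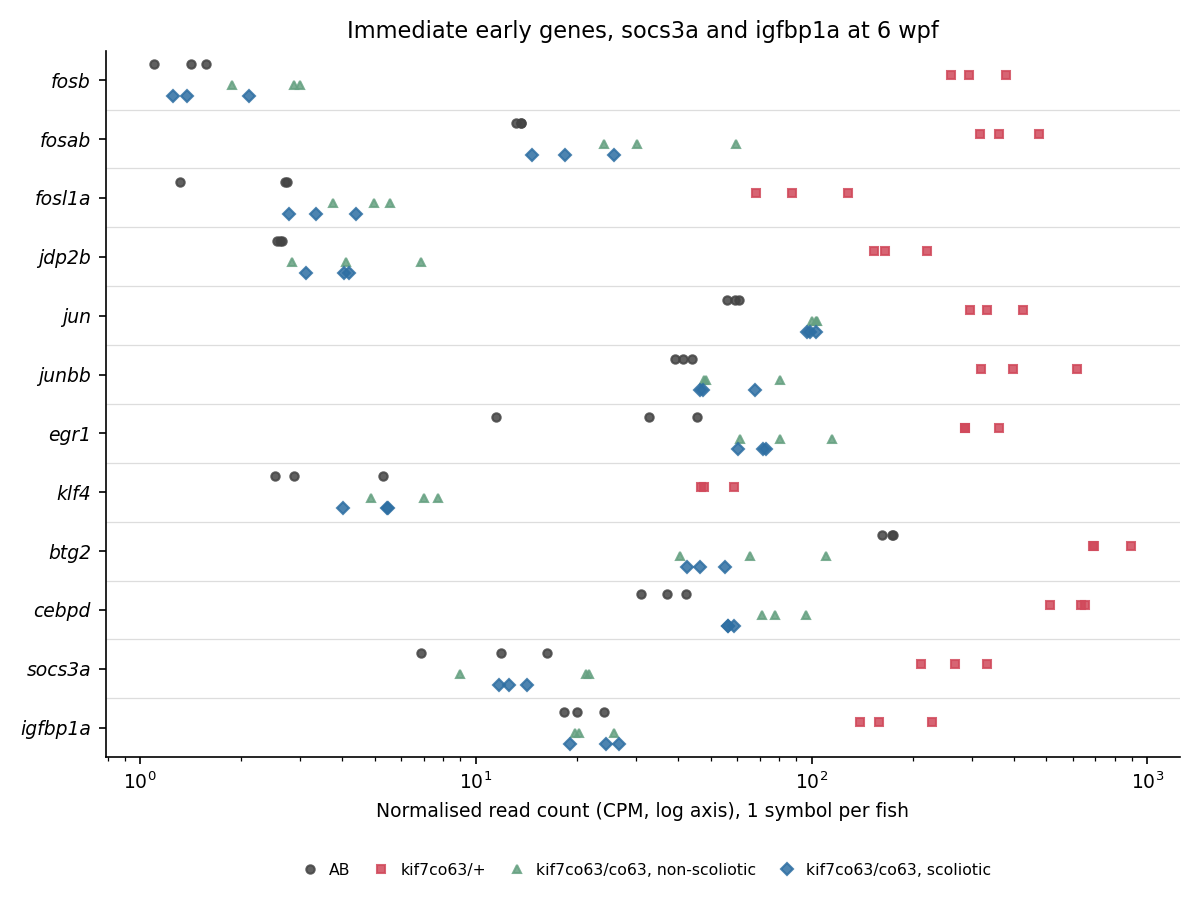
Level of immediate early genes, and of socs3a and igfbp1a of the growth axis, in each of the 12 fish at 6 wpf, in TMM-scaled CPM on a log axis, 1 point per fish. For fosb the heterozygotes lie at 261 to 380 CPM and the AB fish at 1.1 to 1.57 CPM.

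In the growth axis and glucocorticoid lists more genes rose than fell. socs3a, which dampens cytokine and growth hormone receptors, had 6.85, 16.3 and 11.9 CPM in AB and 267, 334 and 212 CPM in heterozygotes (log2 4.53, standard error 0.33, edgeR adjusted p = 6.16e-05). igfbp1a, a binding protein that holds insulin-like growth factors and rises with fasting or low oxygen in fish, had 18.2, 24.02 and 19.97 CPM against 159, 228 and 139.5 CPM (log2 3.08, standard error 0.20, edgeR adjusted p = 3.74e-05). In both genes kif7co63/+ fish 2 was highest and no heterozygote overlapped AB. Over the growth axis, 16 of 29 genes rose and 0 fell, igfbp5b among them (0.41 ± 0.11, lost without AB fish 1, AB fish 3 or kif7co63/+ fish 1 with edgeR adjusted p = 0.0591 to 0.0852), and gh1, the growth hormone itself, rose by 0.70 ± 0.19. The gh1 call was lost without AB fish 2, AB fish 3, kif7co63/+ fish 1 or kif7co63/+ fish 2 (edgeR adjusted p = 0.0508 to 0.0752). Of 20 genes that respond to cortisol or make it, 11 rose and 2 fell, with 7 higher in the fit of all 12 fish. per1a, already counted among the clock repressors, has the largest log2 difference in this list. The others that rose included tsc22d3 (1.53 ± 0.25), ddit4 (0.63 ± 0.14), and hsd11b2, which inactivates cortisol (1.37 ± 0.15). zbtb16a and sgk2b went the other way (−0.80 ± 0.10 and −0.69 ± 0.14). In the fit of all 12 fish tsc22d3, ddit4 and gh1 lost their calls (edgeR adjusted p = 0.233, 0.0522 and 0.0624).

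Clock and early gene levels of heterozygotes were also set beside those of the homozygous fish. After the values above had been seen, heterozygotes were also tested against the mean of both homozygous groups, where 21.7% of genes were higher and 21.8% lower in heterozygotes. Of 14 clock repressors 11 were higher in heterozygotes than in homozygotes. nr1d1 was at 0.446 to 1.31 CPM in the 6 homozygotes, which overlaps AB and lies far under every heterozygote (log2 7.46, edgeR adjusted p = 7.39e-08). rorcb was at 192 to 269.9 CPM in homozygotes, above AB, with the heterozygotes lowest (log2 −3.67, edgeR adjusted p = 9.2e-07). Of 38 immediate early genes 33 were higher in heterozygotes than in homozygotes. fosb was at 1.25 to 3.0 CPM in homozygotes, again beside AB (log2 7.27, edgeR adjusted p = 8.78e-07). The summed clock repressors ran at 276 to 318 CPM and the summed early genes at 1240 to 1625 CPM in homozygotes, so by these measures the fish with 1 mutant copy stood apart from those with none and those with both copies mutant. The hour of collection, clutch and tank of the homozygotes are not given either. Whether these levels depend on the number of mutant copies was not tested.

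Most transcripts of cholesterol synthesis genes were lower. Of 25 synthesis and uptake genes 18 fell and 2 rose, with a median of −1.1. hmgcs1, which makes the HMG-CoA of the early pathway, fell from 519, 517 and 472 CPM to 81.99, 103 and 81.8 CPM (log2 −2.5, standard error 0.13, edgeR adjusted p = 1.25e-05). Every heterozygote was at or below 103 CPM and every AB fish at or above 472 CPM. fdps and sqlea, which make farnesyl diphosphate and squalene epoxide, fell by 1.69 and 1.7 on the log2 scale. The steps named after seeing their values, lss, mvda and idi1, fell by 2.29, 1.37 and 1.1. hmgcra, the rate-limiting reductase, went the opposite way, from 40.9, 49.7 and 25.2 CPM in AB to 163, 172 and 160.3 CPM (log2 2.1, standard error 0.23, edgeR adjusted p = 0.000386), and the receptor gene ldlra rose by 0.42 ± 0.12. The ldlra call was lost on leaving out any AB fish or kif7co63/+ fish 1 (edgeR adjusted p = 0.0678 to 0.091), and both receptor and reductase calls in the fit of all 12 fish (0.0537 for ldlra and 0.0548 for hmgcra). Summed, the list stood at 1969, 2221 and 1934 CPM in AB and 992, 1121 and 1039 CPM in heterozygotes (exact permutation p = 0.1), and at 1085 to 3266 CPM in homozygotes.

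**Figure D5:**
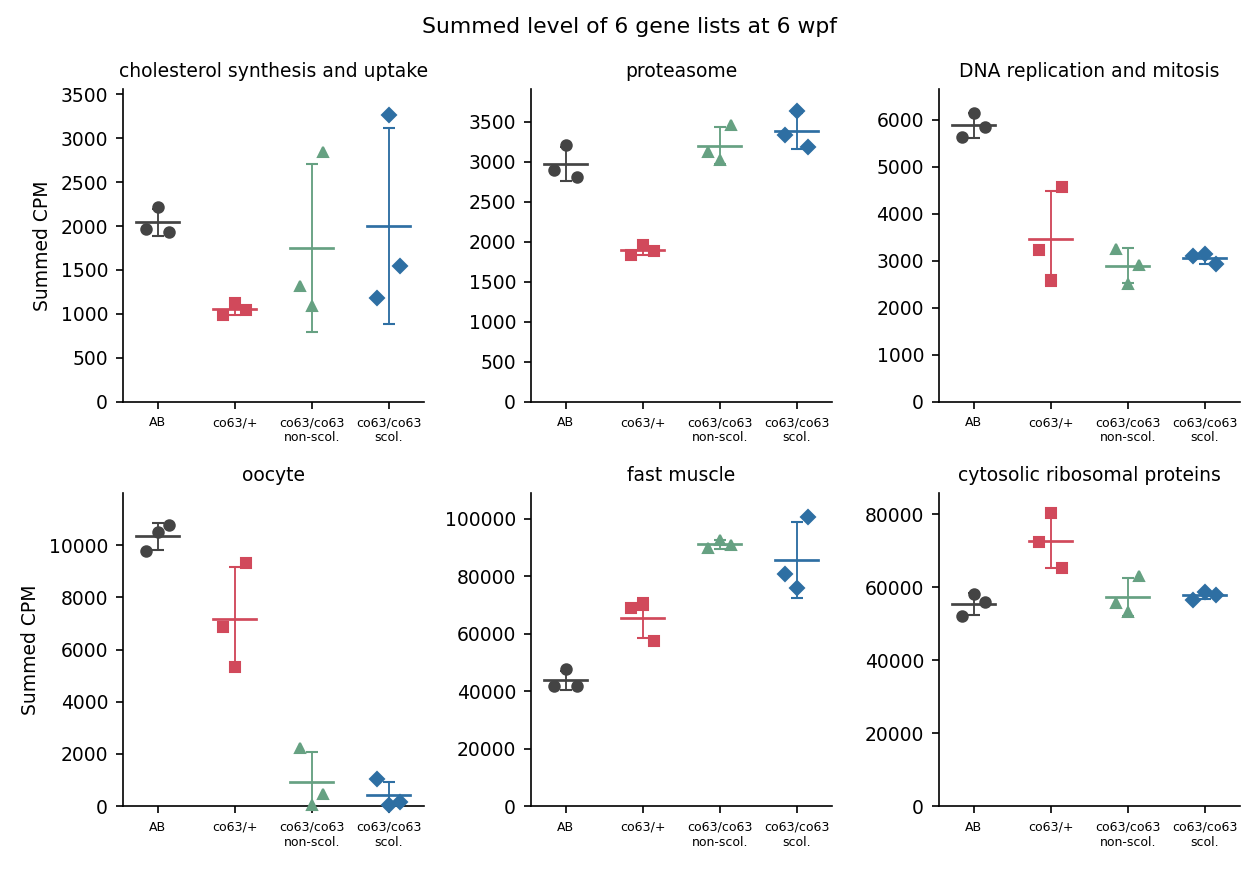
Summed level of 6 gene lists in each of the 12 fish at 6 wpf, in TMM-scaled CPM, with 1 symbol per fish, the group mean as a bar and its SD as whiskers. Cholesterol, proteasome, replication and oocyte genes are lower in heterozygotes than in AB, and ribosomal and fast muscle genes higher, with kif7co63/+ fish 3 nearest to AB in replication.

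Genes of gluconeogenesis and amino acid breakdown were mixed, 10 higher and 4 lower of 22. Without kif7co63/+ fish 1 the lower count was 2. pck1, the rate-limiting enzyme of gluconeogenesis, stood at 145, 53.2 and 93.1 CPM in AB and 463, 551 and 449 CPM in heterozygotes (log2 2.32, standard error 0.32, edgeR adjusted p = 0.00118). The AB fish spread widely, fish 1 the highest, and still lay below every heterozygote. arg2, a mitochondrial arginase, rose by 1.56 ± 0.11, and tdo2b, a tryptophan dioxygenase named after its value was seen, by 4.8 ± 0.59 (5.93 without AB fish 2). gck, the liver glucose kinase that insulin induces, fell from 5.54, 26.9 and 5.84 CPM to 1.63, 0.819 and 1.48 CPM (log2 −3.28, standard error 0.65, edgeR adjusted p = 0.00639). AB fish 2 was far above the other fish, and without it the gck difference was −2.12. Of 37 fatty acid genes 11 rose and 10 fell. pdk2b, which shuts pyruvate out of the citric acid cycle, rose by 3.42 ± 0.20, and angptl4, an inhibitor of lipoprotein lipase, by 1.65 ± 0.24. me1, the malic enzyme that supplies NADPH for lipid synthesis, fell by 1.79, and hadhab, a subunit of the trifunctional protein of beta-oxidation, by 1.09 on the log2 scale.

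Replication and mitosis genes fell, 42 of 58 with 0 higher (median −0.78). The count was 27 without AB fish 1 and 25 without kif7co63/+ fish 1. pcna, the sliding clamp of DNA polymerase, had 417, 454 and 419 CPM in AB and 223, 219 and 266 CPM in heterozygotes (log2 −0.87, standard error 0.12, edgeR adjusted p = 0.00116). mcm5, a subunit of the replicative helicase, fell by 0.82, and rrm2, the ribonucleotide reductase subunit, by 3.44 on the log2 scale (gene model ENSDARG00000020711, while another model of this symbol was not called). gmnn, an inhibitor of origin licensing, and ncapg, a condensin subunit, were lower (−2.59 ± 0.26 and −3.03 ± 0.25). orc1, the largest subunit of the origin recognition complex, which was not on the list, rose from 0.307, 0.221 and 0.415 CPM to 13.4, 8.78 and 18.2 CPM. In bulk RNA, fewer cells of a type and less RNA per cell cannot be told apart.

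Of the oocyte and germ cell genes 27.6% and 43.3% were called, beside 36.2% of all genes. Summed levels of the oocyte genes are set here beside those of the replication genes. The summed replication genes were 5641, 6157 and 5852 CPM in AB and 3229, 2596 and 4575 CPM in heterozygotes, and the summed oocyte genes 9778, 10498 and 10783 against 6852, 5338 and 9314 CPM. kif7co63/+ fish 2 was lowest and fish 3 highest of the heterozygotes on both sums, and all 3 lay below AB. In homozygotes the oocyte sum was 52.5 to 2244 CPM, below every heterozygote. Their replication sum was 2515 to 3254 CPM, which overlaps the heterozygotes. Of 29 oocyte genes 27 had a negative log2 difference and 2 a positive one. Called lower were 8, zp3a.1, an egg coat protein, among them (−0.56 ± 0.19, lost on leaving out any fish other than kif7co63/+ fish 3 with edgeR adjusted p = 0.0618 to 0.118). That count was 1 to 3 when any fish other than kif7co63/+ fish 3 was left out (1 without AB fish 1, AB fish 3 or kif7co63/+ fish 1, 2 without AB fish 2 and 3 without kif7co63/+ fish 2), 22 without kif7co63/+ fish 3 (20 with DESeq2, 13 with the replicate block), and 0 in the fit of all 12 fish. Of 30 germ cell genes 10 fell, piwil1 (−0.77 ± 0.16) and tdrd6 (−0.70 ± 0.17) of the piRNA machinery among them, and 3 rose. In the fit of all 12 fish 0 of them fell and 1 rose. The lower count was 5 without AB fish 1, 6 without AB fish 2 or AB fish 3 and 4 without kif7co63/+ fish 1, and the higher count 0 without AB fish 1 and 1 without any of the other 3. The call of tdrd6 was lost without kif7co63/+ fish 1 (edgeR adjusted p = 0.0526). tdrd1, also of the piRNA machinery, was an exception with 1.67, 2.9 and 46.01 CPM in heterozygotes against 0.469, 0.615 and 0.335 in AB, so kif7co63/+ fish 3 stood far above the rest, and its call was lost without AB fish 1 or AB fish 3 (0.0594 and 0.0533). Without kif7co63/+ fish 3 the tdrd1 difference was 2.25. Among 20 genes of the somatic gonad 5 rose and 3 fell, hsd3b2, of steroid synthesis, by 1.1 on the log2 scale. The fit of all 12 fish called none of zp3a.1, piwil1, tdrd6 and hsd3b2 (edgeR adjusted p = 0.531 to 0.834). Of 6 vitellogenin and estrogen receptor genes 3 fell, and 0 without AB fish 1 and 1 without kif7co63/+ fish 1. The part of gonad content in the fall of replication genes was not tested.

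Transcripts of most proteasome genes fell, 34 of 43 subunit and assembly genes with 0 higher and a median of −0.64. psmd1, a scaffold of the regulatory particle, went from 213, 216 and 194 CPM in AB to 93.02, 93.6 and 125 CPM in heterozygotes (log2 −1.0, standard error 0.14, edgeR adjusted p = 0.00141), and the core subunit gene psma8 fell by 0.51 on the log2 scale. The groups did not overlap for psmd1. The summed proteasome level was 2894, 3210 and 2814 CPM in AB, 1833, 1955 and 1888 CPM in heterozygotes and 3016 to 3633 CPM in homozygotes. In the endoplasmic reticulum stress list 19 of 29 genes fell. They included the chaperone genes hspa5, the BiP chaperone (−0.79 ± 0.18), hsp90b1 (−1.09 ± 0.23) and calr3a, a calreticulin (−1.43 ± 0.12). The 4 members of that list that rose included the transcription factors ddit3 (1.38 ± 0.15) and atf3 (2.43 ± 0.26) and the phosphatase subunit ppp1r15a (1.74 ± 0.21). The kinase gene eif2ak3, which was not on that list, rose more, as given below. Of 101 heat shock and chaperone genes, 39 fell and 14 rose. hspa5 and hsp90b1, already counted in the endoplasmic reticulum stress list, were among those that fell. Those that rose included hsc70 (1.48 ± 0.14) and the small heat shock protein gene hspb11 (1.11 ± 0.14). Genes of oxidative phosphorylation gave 6 higher and 10 lower of 84, with 2 higher and 6 lower without AB fish 1, 6 lower without AB fish 2, 5 lower without kif7co63/+ fish 1 and 12 higher without kif7co63/+ fish 3 (10 with upper quartile scaling).

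Ribosomal protein genes moved up by a small step. 43 of 78 rose and 2 fell, with a median of 0.43. rps2, rplp0 and rpsa, of the small, large and small subunit, rose by 0.54 ± 0.15, 0.43 ± 0.11 and 0.40 ± 0.11, and rpl13a fell by 0.84 on the log2 scale. The sum was 52082, 58078 and 56079 CPM in AB and 72542, 80330 and 65428 CPM in heterozygotes, fish 3 the lowest of them. The higher count was 11 without AB fish 1, 15 without kif7co63/+ fish 1 and 26 without AB fish 3 or kif7co63/+ fish 2. rps2 lost its call without AB fish 1, AB fish 2, kif7co63/+ fish 1 or kif7co63/+ fish 2 (edgeR adjusted p = 0.0578 to 0.1), and rplp0 and rpsa without AB fish 1, AB fish 3 or kif7co63/+ fish 1 (0.0523 to 0.0885).

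Fast muscle and lens transcripts were higher. Of 39 fast muscle genes 18 rose and 0 fell (median 0.49). The summed level was 41755, 47625 and 41687 CPM in AB and 68885, 70011 and 57568 CPM in heterozygotes, 1.5 times the AB mean. pvalb1, a calcium buffer of fast fibres, rose by 0.67 ± 0.13, tpma, a tropomyosin, by 0.74 ± 0.12, and ckmb, a muscle creatine kinase, by 0.96 ± 0.14. In the slow muscle and heart list 10 of 34 rose and 2 fell. These were myh6, the atrial myosin, which fell by 0.98, and actc1a (log2 −1.99). Lens crystallins rose in 36 of 54 cases, with a median of 0.75, and crybgx alone fell, by 1.09 on the log2 scale. cryba2b and crygm1 rose by 1.14 ± 0.11 and 1.08 ± 0.12. In the retina 18 of 58 photoreceptor genes rose and 15 fell. The cone phosphodiesterase genes pde6ha and pde6c rose by 1.03 ± 0.11 and 1.43 ± 0.12, while rho, the rod opsin, went from 1171, 853 and 1219 CPM to 620, 642 and 678 CPM (log2 −0.74, standard error 0.15, edgeR adjusted p = 0.00631). Cone arrestin arr3a had 0, 1 and 10 reads in AB and 1178, 1670 and 865 reads in heterozygotes. Its paralog arr3b, named after its value was seen, rose by 2.98 ± 0.14.

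Skin and pigment genes rose more often than they fell. Of 46 epidermal genes 14 rose and 6 fell, with the keratins krt91 (1.12 ± 0.15) and krt8 (0.96 ± 0.13) higher and agr2, a mucous cell chaperone, lower (−1.2 ± 0.14). The higher count was 7 without AB fish 3, 8 without kif7co63/+ fish 1 or fish 2 and 9 in the fit of all 12 fish. Among 34 pigment genes 19 rose and 2 fell. pnp5a, a purine enzyme of iridophores, rose from 19.5, 23.9 and 19.7 CPM to 128, 148 and 125 CPM, and tyrp1b, of melanin synthesis, by 0.85 ± 0.10. scarb1, which takes up carotenoids, fell by 0.86 on the log2 scale. In the nervous system 10 of 21 myelin genes and 14 of 45 neuronal genes rose, and 0 and 7 fell. stmn1b, a neuronal stathmin, rose by 0.87 ± 0.11, while tubb5, a beta-tubulin, fell by 0.86 on the log2 scale. The myelin count was 2 without AB fish 1 and 4 to 6 without AB fish 2 (6), AB fish 3 (5), kif7co63/+ fish 1 (4) or kif7co63/+ fish 2 (5). The neuronal counts were 8 higher without AB fish 3, 7 higher and 2 lower without kif7co63/+ fish 1, and 3 lower without AB fish 1.

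Skeletal genes did not move as a block. col2a1a, the main collagen of cartilage and notochord sheath, fell from 147, 124 and 151 CPM in AB to 69.1, 80.1 and 94.3 CPM (log2 −0.79, standard error 0.14, edgeR adjusted p = 0.00404), and homozygotes held 242 to 449.5 CPM. So the heterozygotes lay below both other genotypes. The cartilage fibril genes col11a2 and col11a1a fell by 0.65 and 0.71, and the matrix genes col9a2 and matn1 by 0.72 and 0.89 on the log2 scale. tnmd, a membrane protein of tendon, and matn4 rose by 0.61 ± 0.12 and 0.50 ± 0.11. Over the collagens 9 of 51 rose and 11 fell, shares near those of all genes, with 5 higher without AB fish 3 and 7 lower without kif7co63/+ fish 1. Notochord genes gave 6 higher and 5 lower of 22, with 3 higher without AB fish 3 or kif7co63/+ fish 1 and 3 lower without AB fish 1 or in the fit of all 12 fish. Cartilage genes gave 7 higher and 6 lower of 28, with 3 lower without AB fish 1, 2 lower in the fit of all 12 fish and 13 higher with upper quartile scaling. Bone genes gave 13 higher and 2 lower of 32, and 8 higher without AB fish 3 or kif7co63/+ fish 1. scpp7, a secretory calcium-binding phosphoprotein, rose by 0.71 ± 0.14. In the fit of all 12 fish its difference was also 0.71, but the call was lost (edgeR adjusted p = 0.591). entpd5a, a phosphate-releasing enzyme that mineralization of the zebrafish axial skeleton needs, rose by 0.83 ± 0.13. BMP and TGF-beta genes rose in 20 of 57 cases and fell in 1, with id1, a direct BMP target, up by 1.03 ± 0.16 and the receptor gene tgfbr2b by 0.66 ± 0.10. Wnt genes gave 16 higher, the feedback inhibitor nkd1 (0.65 ± 0.09) among them, and 6 lower of 71. The lower Wnt count was 1 without AB fish 1, AB fish 3 or kif7co63/+ fish 1, 2 without AB fish 2, 3 without kif7co63/+ fish 2 and 12 without kif7co63/+ fish 3. Among 43 hox genes 10 rose and 0 fell, and 5 rose without AB fish 3, kif7co63/+ fish 1 or kif7co63/+ fish 2.

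Of the ciliary genes, the setting in which Kif7 acts, 23.1% of the transport list and 11.3% of the motile cilium list were called, beside 36.2% of all genes, and the difference between these shares was not tested. The median motile cilium gene stood at 1.29 CPM over the 6 fish, against 8.21 CPM for the transport list and 9.61 CPM for all genes tested. 2 of 39 ciliary transport genes rose and 7 fell, and 2 of 62 motile cilium genes rose and 5 fell. These counts are small, and the lower ones came to 3 or 4 for transport on leaving out any fish other than kif7co63/+ fish 3 (4 without AB fish 1, AB fish 2 or kif7co63/+ fish 1 and 3 without AB fish 3 or kif7co63/+ fish 2). For motile cilia the lower count was 3 without AB fish 2, without AB fish 3 or in the fit of all 12 fish, and 2 without kif7co63/+ fish 1. rpgrip1l, of the transition zone, fell by 0.74 on the log2 scale, and arl13b, the ciliary small GTPase, rose by 0.50 ± 0.11. spag1a, a dynein assembly factor, went from 31.5, 32.1 and 28.98 CPM to 19.04, 21.9 and 15.2 CPM, and dnah2, an axonemal dynein heavy chain, fell by 1.52. Of 41 other kinesins, a list not limited to ciliary motors, 11 fell and 2 rose. kif11 (log2 −0.82) and kif22 (−0.69) were among those that fell. So was kif3a, which is also counted in the transport list. kif5ba, a conventional kinesin, fell by 0.65, and the lower count was 5 or 6 on leaving out any fish other than kif7co63/+ fish 3 (6 without AB fish 1, kif7co63/+ fish 1 or kif7co63/+ fish 2 and 5 without AB fish 2 or AB fish 3). The Reissner fiber and urotensin peptides keep the fish body axis straight. Of 7 tested genes in their list 1 was called, sst1.1 (−0.55 ± 0.14), which encodes a somatostatin and is neither a fiber nor a urotensin gene, and it lost its call without AB fish 1 or AB fish 2 (edgeR adjusted p = 0.0549 and 0.0639). Outside the naming rule, scospondin, the fiber's protein, differed by −0.23 ± 0.22 and the urotensin peptide gene urp2 by 0.53 ± 0.69, with neither called.

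Immune, gut and blood lists gave calls in both directions. ccr9a, a homing receptor of thymocytes and gut lymphocytes, rose from 9.68, 7.6 and 10.7 CPM in AB to 39.1, 39.8 and 36.1 CPM (log2 2.04, standard error 0.14, edgeR adjusted p = 4.36e-05), while rag1, of antigen receptor rearrangement, fell from 88.7, 71.6 and 114 CPM to 42.7, 48.9 and 62.2 CPM, a call lost without kif7co63/+ fish 1 (edgeR adjusted p = 0.0531). Of 27 lymphocyte genes 2 rose in all and 3 fell. csf1ra, a receptor of macrophages and yellow pigment cells, rose from 10.3, 10.1 and 10.98 CPM to 18.04, 18.7 and 18.5 CPM. In all 8 of 31 myeloid genes rose and 3 fell, with 5 higher without AB fish 1 or kif7co63/+ fish 2, and 3 higher and 1 lower without kif7co63/+ fish 1. mpx, the neutrophil peroxidase, had 20.8, 90.1 and 19.7 CPM in AB and 13.1, 11.4 and 13.1 CPM in heterozygotes, with AB fish 2 far above the other fish, and the call was lost on leaving out any of the heterozygotes (edgeR adjusted p = 0.0652 to 0.0906). Without AB fish 2 the mpx difference was −0.69 on the log2 scale, still called. In the interferon list 9 of 31 rose and 4 fell, with a median log2 difference of 0.41. gbp1, a guanylate-binding protein, was among those that fell, by 1.21 on the log2 scale. The class I gene mhc1zba of antigen presentation rose by 0.75 ± 0.14 and mhc1zca by 1.32 ± 0.15, 6 of 27 in all, with 3 lower. Complement and coagulation genes rose in 13 of 49 cases and fell in 2, with 8 higher without AB fish 3 and 7 in the fit of all 12 fish. None was called lower in that fit, with the replicate block, or without AB fish 1, AB fish 2 or kif7co63/+ fish 1, and 1 was without AB fish 3 or kif7co63/+ fish 3. fgg, the fibrinogen gamma chain, rose by 1.22 ± 0.12. Intestinal genes split into 9 higher and 8 lower of 27. The acidic chitinase gene chia.3 rose by 1.11 ± 0.11 and the lipoprotein genes apobb.1 and apoa4b.2 fell by 0.73 and 1.47. Exocrine pancreas genes rose in 6 of 19 cases, but in 1 without AB fish 1, 2 without AB fish 2, 3 without kif7co63/+ fish 2 and 1 in the fit of all 12 fish. Liver secreted proteins were called in 3 and 1 of 22 cases (6 higher without kif7co63/+ fish 3), and red cell genes in 2 and 3 of 25, with the ammonia channel gene rhag up by 0.81 ± 0.17 and hemgn down by 0.80. Of 9 pituitary hormone genes gh1 alone was called, and of 9 immunoglobulin segments 1 was lower.

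Some of the largest single-gene differences were in genes close to absent in 1 genotype. slc31a1, the copper importer, had 7, 2 and 1 reads in AB and 1864, 2034 and 887 reads in heterozygotes. The gene next to it on chromosome 5, atp6v1g1, a subunit of the vacuolar proton pump, had 0, 4 and 1 reads in AB and 612, 724 and 906 in heterozygotes. Both were well expressed in homozygotes, at 54.6 to 84.3 and 34.02 to 45.9 CPM, above every heterozygote. Another neighbouring pair on chromosome 13, rpia of the pentose phosphate pathway and eif2ak3, the PERK kinase, rose by 6.79 ± 0.15 and 6.44 ± 0.28. tspan36, a tetraspanin of pigment cells, lies on the same stretch of chromosome 8 as ptch1 and went from 11, 12 and 4 reads in AB to 739, 756 and 879 reads. rgs5a, a regulator of G protein signalling, rose by 6.86 ± 0.23. In the other direction abcc4, a multidrug and prostaglandin exporter, went from 8.31, 15.1 and 7.07 CPM to 0.216, 0.457 and 0.232 CPM and stood at 14.8 to 43.8 CPM in homozygotes (log2 −5.07, standard error 0.41, edgeR adjusted p = 0.00011). abcc4 lies near dzip1 on chromosome 6. cyp46a1.1, which hydroxylates cholesterol in brain in mammals, fell by 5.0 on the log2 scale (gene model ENSDARG00000093477, with a further model of this symbol also lower). slitrk5b, a neuronal membrane protein (−4.04 ± 0.26), exosc10, the exosome nuclease (−2.63 ± 0.51), and ddx28, a mitochondrial RNA helicase (−2.52 ± 0.22), fell too.

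At the limit, 19 genes had at most 3 reads in every AB fish and at least 50 in every heterozygote, and 6 showed the reverse. The 19 lay on 12 chromosomes and the 6 on 5. Against a floor of 3 reads in each library, zgc:171470 was at least 458-fold higher in heterozygotes, si:ch1073-190k2.1 at least 227-fold, AL935186.1 at least 175.5-fold (76.5-fold without kif7co63/+ fish 2, which held 929 of its reads against 145 in the lowest), rgs16, another regulator of G protein signalling, at least 169.7-fold, and si:ch73-185c24.2 at least 160.1-fold. Homozygotes had 343 to 589 reads of rgs16 and 3563 to 5856 reads of zgc:171470, so these transcripts were found in both mutant genotypes. Of the genes read only in AB, cnpy4 and ntn5 are neighbours on chromosome 7 and were at least 102.1-fold and 93.2-fold lower in heterozygotes, with at most 4 and 3 reads in any homozygote. vrtn, which sets the number of thoracic vertebrae in pigs, had 91 to 449 reads in AB and 0 in all heterozygotes and homozygotes, a fall of at least 69.7-fold. si:ch73-168d20.1 was at least 73.5-fold lower in heterozygotes, which had 0 reads, while homozygotes had 232 to 775. gtpbp2b was at least 37.1-fold lower. Genotypes of the fish at these loci were not measured.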

How the data were processed

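Whole zebrafish at 6 wpf were sequenced as poly(A)-selected RNA, 1 fish per library, with libraries made by Novogene. The authors deposited 1 table of raw read counts per gene. Per the labels and methods, reads were filtered with fastp, aligned to GRCz11 with HISAT2 and assigned with featureCounts, and StringTie and DESeq2 are also named. Whether reads were counted by strand is not given in the sources used here, so overlapping and antisense genes, and near-identical paralogs, can share reads. The deposited tables of the authors' own comparisons (fold changes and p-values) were not used. The 6 columns of larval samples in the count table were not used.

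Counts were analysed in R 4.3.3 with edgeR 4.0.16 and limma 3.58.1 (TMM, filterByExpr at 10 counts and a total of 15, quasi-likelihood F test on the 6 fish, Benjamini-Hochberg adjustment over all 23075 genes tested, threshold 0.05). DESeq2 1.42.0 served as an alternative. Standard errors were derived from the F statistic. CPM were scaled over the 12 fish of this age. Sums and exact permutation tests used Python 3.11.15, pandas 2.3.3 and scipy 1.17.1, and plots matplotlib 3.10.9. In counts simulated over 23075 genes, edgeR recovered 49 of 100 genes changed by 1 and 79 of 100 changed by 2 on the log2 scale, with 11 false calls among 139. All other genes were left unchanged there, while 36.2% of genes were called in the data. The adjustment of p depends on that share, so these recovery rates need not hold for this comparison. Totals of 49434684 to 69188650 reads set the precision, and replicates were separate fish that differed by more than sampling noise. The labels number the fish of each group 1 to 3, but the deviations of same-numbered fish from their group means did not correlate, so the numbers were not used as pairs.

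The comparison and the 54 gene lists (1 of which matched no symbol) were chosen with earlier results of these data known, so they are not independent support for any direction. 1 gene of the lists is not reported here. Genes named in the text were kif7, the 12 largest called changes per direction with non-overlapping groups and at least 10 CPM in the higher group, up to 3 called members per direction and list with the highest mean CPM, members of the Hedgehog and clock lists, called genes within 1 Mb of kif7, and the 5 with most reads in each direction among genes read in 1 genotype only (at most 3 reads in every fish of 1 group and at least 50 in every fish of the other). The test against homozygotes was added after the values had been seen, with 9 fish in the fit. Alternatives were RLE, upper quartile and total-count scaling, DESeq2, other filters, a fit of all 12 fish, a replicate block and leaving out each fish.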

Additional observations from a re-analysis of the deposited data

How the results depend on the processing

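The number of genes called between heterozygotes and AB, 8352, ran from 5195 (without kif7co63/+ fish 1) to 9202 (without kif7co63/+ fish 3) when 1 fish was left out, with 2814 to 4255 higher and 2381 to 4947 lower. With all 6 fish kept it was 8417 with RLE scaling, 8464 with upper quartile or total-count scaling, 9426 with DESeq2, 8116 without a filter, 8169 with a mean of at least 1 CPM and 7274 with all 12 fish in 1 fit. DESeq2 also called 8284 of the 8352. Scaling moved the split, from 4293 higher and 4059 lower to 5013 and 3451 with upper quartile scaling and 3888 and 4576 with total counts. With the replicate number as a block 7588 genes were called, 7200 of them among the 8352, although same-numbered fish did not deviate together (correlations of −0.031 to 0.035 over all pairs of fish numbers). The difference for kif7 ran from −0.89 to −0.64 on the log2 scale when 1 fish was left out and kept its call throughout. Symbols for which more than 1 gene model entered this check were left out. Of the other genes named, 177 were called. Of these, 161 lost the call under no alternative that kept all 6 fish, and 149 lost it under no alternative at all. None changed direction. A gene that an alternative left untested, as the filter at a mean of 1 CPM can, was counted as keeping its call there. The cause of the calls lost was not tested. Of 123 named genes called against homozygotes, 107 lost the call under no alternative, counted in the same way. In simulated counts with 3 fish a side, 49 of 100 genes changed by 1 on the log2 scale were recovered. Far fewer genes were changed there than were called here, so this is not the recovery rate of this comparison. A gene not called is not shown to be equal.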
